A study of Mus musculus with 3264 samples.

Results

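The Atf4 amino acid stress response was followed through 42 genes listed by name and function, out of 24781 genes in the deposited table of single cells from 3 mouse cell lines. The members are 10 stress factors, 9 enzymes that make amino acids or carry their carbon units, 13 cytosolic aminoacyl-tRNA synthetases, 8 amino acid transporters and 2 other targets, Stc2 and Vldlr. In at least 1 line of 1 experiment, 41 of the 42 members reached 10 counts per 1e+06 counts (CPM). The exception was Vldlr, a lipoprotein receptor, which had 0 counts in all groups but FACS T wells.

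Atf4 is a basic leucine zipper transcription factor whose mRNA is translated better when the initiation factor eIF2 is phosphorylated, as happens when amino acids run short, when the endoplasmic reticulum is stressed or when heme is lacking. It drives genes that make and import amino acids and charge tRNAs, together with a second layer of factors, among them Ddit3 (CHOP), Trib3 and Atf5. Because Atf4 is controlled largely at translation, its own mRNA level is an incomplete readout of the pathway, and its targets are usually read beside it.

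Single cells of a mixture of a murine hematopoietic progenitor cell (HPC) line, a murine T cell line and a murine leukemia line were put into wells of 96-well plates, and libraries with molecular barcodes were counted per gene. In target wells, ALPS, the isolation method under study, picked cells by type, on 4 plates with 17 to 21 HPC, 24 to 33 T and 30 to 34 leukemia wells each. In random wells (4 plates) ALPS picked without choosing a type, in time-lapse wells (16 plates) it picked after time-lapse imaging, and FACS wells (2 plates) were filled by sorting the same kind of mixture, for 1836 wells in all. The labels give no treatment, no gene alteration, no line name, no strain and no separate cultures, so each group counts as 1 sample, plates are repeats whose cultures are not named, and no test was possible between groups.

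The random and time-lapse wells carry no line label, so each well was given the line whose profile over target wells it matched best. In target wells the profile matched the label in 99.1% of wells, and the 3 wells that did not match were labelled HPC. Those 3 wells were kept among the HPC target wells. In FACS wells the profile matched the label in only 60 wells (33.5%). FACS wells are therefore also given by profile, and the counts of calls with FACS wells by label stand beside them. By profile each FACS label held all 3 lines, with 13 HPC, 16 T and 16 leukemia wells under the HPC label. The T label held 20, 24 and 24 and the leukemia label 19, 24 and 23. Where the profile holds, groups by label are mixtures of the lines and cannot check line differences found by profile. By profile a random plate held 21 to 32 HPC, 17 to 44 T and 22 to 28 leukemia wells, a time-lapse plate 10 to 24, 6 to 30 and 15 to 39, and a FACS plate 24 to 28, 32 and 31 to 32. The line markers came from earlier results of these data and were not left out of the profiles. They are therefore no separate check of lines given by profile. Defining markers of each line were present in the wells given to it, with a reservation: the 5 T markers summed to 594.7 CPM (471.4 to 818.03 over plates) in time-lapse T wells, against 1709 CPM (1670.5 to 1746) in random T wells. The margin between the best and the next profile was also smaller in those wells, with a median correlation difference of 0.0914 against 0.150, and they are called T-profile wells here. Total counts per well ran from 10005 to 140363.

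Counts were summed per plate and line and scaled to CPM. A member is called higher or lower where the mean difference in log2(CPM + 1) was at least 1, that is 2-fold, and pointed the same way on all plates, among genes with at least 10 CPM in either group. The share of all such genes that met the same rule is given as the background beside each count of members. In lines given by profile, the background includes genes of the profiles, while the members were left out of the profiles. Counts with a plate left out have no background beside them, and fewer plates had to agree in them.

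The members together took 0.405% of all counts in HPC, 0.688% in T and 0.609% in leukemia target wells. The plates of HPC target wells spanned 0.384% to 0.423%, those of T target wells 0.495% to 0.889% and those of leukemia target wells 0.497% to 0.7098%. In random wells the members took 0.476% in HPC, 0.645% in T and 0.614% in leukemia wells, in FACS wells 0.534%, 0.610% and 0.706%, and in time-lapse wells 0.424%, 0.731% and 0.663%. The plates of HPC wells lay below those of both other lines in target and random wells, overlapped both in FACS wells and overlapped leukemia alone in time-lapse wells.

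Atf4 binds as a dimer, often with a C/EBP protein, to a composite element whose core is written here as TGATGNAA, read on either strand. RefSeq promoters of build GRCm38.p6 (250 bases before to 50 after a gene start) were found for 34 of the 42 members, and 12 of these (35.3%) held the letters, against 4.51% of 27025 genes. In the 250 bases before the start alone, 23.5% of the members (8 genes) and 3.91% of all genes held them. A match is a run of letters and not a measured binding site. The 6 members shown are those with a match and the largest called line differences in target wells, and capitals mark the match. Nupr1 (chr7:126625471-126625720, minus strand), Asns (chr6:7693210-7693459, minus), Gars (chr6:55037751-55038000, plus) and Aars (chr8:111033592-111033841, plus) are shown over the 250 bases before the start that the RefSeq promoter table gives, which for Aars lies inside the longer span of the gene in RefSeq. The matches of Nupr1, Asns and Gars begin 110, 23 and 30 bases before it, and that of Aars lies farther upstream than the match of Nupr1. For Trib3 (chr2:152344029-152344056, minus) and Slc1a4 (chr11:20332700-20332727, minus) the match crosses or follows the start, and 28 bases around it are shown.
Nupr1: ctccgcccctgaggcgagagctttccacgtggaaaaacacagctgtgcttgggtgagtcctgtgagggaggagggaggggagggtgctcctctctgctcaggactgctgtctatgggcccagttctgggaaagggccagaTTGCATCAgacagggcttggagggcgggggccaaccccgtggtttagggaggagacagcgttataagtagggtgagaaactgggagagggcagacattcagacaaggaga
Asns: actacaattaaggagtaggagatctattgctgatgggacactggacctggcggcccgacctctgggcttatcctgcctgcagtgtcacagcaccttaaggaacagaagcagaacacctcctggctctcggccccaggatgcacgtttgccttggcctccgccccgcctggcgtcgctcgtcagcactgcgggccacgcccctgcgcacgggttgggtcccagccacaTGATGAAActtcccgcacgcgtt
Gars: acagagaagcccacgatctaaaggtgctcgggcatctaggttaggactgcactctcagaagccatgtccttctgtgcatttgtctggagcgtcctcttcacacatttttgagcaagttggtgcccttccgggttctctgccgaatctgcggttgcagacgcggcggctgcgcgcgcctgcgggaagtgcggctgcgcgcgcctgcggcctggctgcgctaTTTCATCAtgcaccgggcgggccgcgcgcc
Aars: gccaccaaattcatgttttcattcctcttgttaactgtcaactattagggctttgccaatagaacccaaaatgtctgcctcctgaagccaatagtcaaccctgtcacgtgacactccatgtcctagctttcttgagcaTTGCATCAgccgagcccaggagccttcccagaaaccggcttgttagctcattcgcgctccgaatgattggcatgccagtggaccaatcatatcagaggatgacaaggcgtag
Trib3: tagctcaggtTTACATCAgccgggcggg
Slc1a4: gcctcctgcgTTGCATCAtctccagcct

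The first question was how the pathway differs between the 3 lines among cells picked by type. Between HPC and T target wells, 0 of 40 members tested were called higher in HPC (background 13.1%) and 16 were called lower (background 15.3%). The median member difference was -0.77 on the log2 scale, against -0.12 for all genes tested. Between HPC and leukemia, 1 of 35 members was called higher (background 13%) and 9 lower (background 12.8%), with a median of -0.41 against -0.12 for all genes. Between T and leukemia, 5 of 40 were called higher (background 14.8%) and 2 lower (background 12.2%), with a median of 0.25 against 0.01. The 3 comparisons share groups, so they are not independent of one another. Without the 3 wells labelled HPC that matched another profile, 15 members were lower in HPC than in T, and the other counts held.

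Among the stress factors, Atf4 itself was not called between lines, because the direction turned between plates. It stood at 336.96, 369.97, 420.2 and 428.8 CPM on plates 1 to 4 in HPC wells, at 599.7, 633.9, 303.01 and 313.7 CPM in T wells and at 585.7, 582.5, 401.98 and 370.6 CPM in leukemia wells. HPC wells lay below both other lines on plates 1 and 2 and above both on plates 3 and 4. T wells lay above leukemia wells on plates 1 and 2 and below them on plates 3 and 4. The ranges overlap in all pairs of lines. The T and leukemia plates each fall into high values on plates 1 and 2 and lower ones on plates 3 and 4. Ddit3, the pro-apoptotic factor CHOP, had 124.6, 184.96, 42.1 and 40.5 CPM in T wells and 25.4, 23.2, 9.10 and 19.9 CPM in leukemia wells. No T plate overlapped the leukemia plates, and the mean log2 difference was 2.07 (0.99 to 2.94 over plates). In HPC wells Ddit3 had 22.01, 26.7, 34.6 and 30.2 CPM, below each T plate, with a difference of -1.47 against T.

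Trib3, a pseudokinase that Ddit3 and Atf4 switch on and that restrains Atf4, had 5.93, 5.63, 14.6 and 3.02 CPM in HPC wells and 148.6, 127.8, 18.3 and 7.30 CPM in T wells. Its HPC over T difference was -2.52, with -4.43 to -0.31 over plates, and the HPC plates overlapped the lowest T plate. Trib3 in leukemia wells, at 10.99, 18.4, 6.07 and 9.48 CPM, was not called against T because the direction turned on plate 4. Nupr1, a small stress-induced nuclear protein, had 0 counts in leukemia wells, where 0 counts allow up to 0.704 CPM over the group. In T wells it had 44.7, 52.1, 4.31 and 0.995 CPM, at least 35.4-fold higher than in leukemia when leukemia is set to 3 counts. In HPC wells it had 1.69, 0, 1.82 and 0 CPM from 2 counts, and the T over HPC ratio was 31.4 with a counting interval of 8.53 to 263.04. Nupr1 was detected in 35% of T wells, 2.74% of HPC wells and 0 leukemia wells.

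Atf5, a relative of Atf4 that also drives mitochondrial stress genes, had 33.9, 28.2, 23.6 and 13.6 CPM in HPC, 105.04, 78.2, 34.5 and 29.9 CPM in T and 8.45, 19.4, 10.1 and 9.48 CPM in leukemia wells. It was higher in T than in leukemia by 2.17 and in HPC than in leukemia by 1.01, and the second call was lost without plate 1 or without plate 3. HPC lay below T by -1.16 as a log2 difference. Cebpb, a C/EBP partner of Atf4, had 75.6, 79.03, 29.1 and 41.1 CPM in T and 27.04, 22.3, 10.1 and 10.4 CPM in leukemia wells, which did not overlap (1.64). HPC wells had 22.01, 23.9, 16.4 and 21.1 CPM of Cebpb, below all T plates (-1.29). The other stress factors met no call between lines in target wells: Chac1, which degrades glutathione, Sesn2, which restrains mTORC1, Cebpg, another C/EBP partner, and Ppp1r15a (GADD34), which leads the phosphatase that reverses eIF2 phosphorylation. Stc2, a secreted stress glycoprotein, had 49.8, 38.7, 10.8 and 8.63 CPM in T wells against 6.76, 10.6, 7.08 and 7.58 CPM in leukemia wells (1.30), with the fourth plates only 0.17 apart. Stc2 in HPC wells stood at 10.2, 4.22, 3.64 and 7.55 CPM (-1.66 against T).

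**Figure D1:**
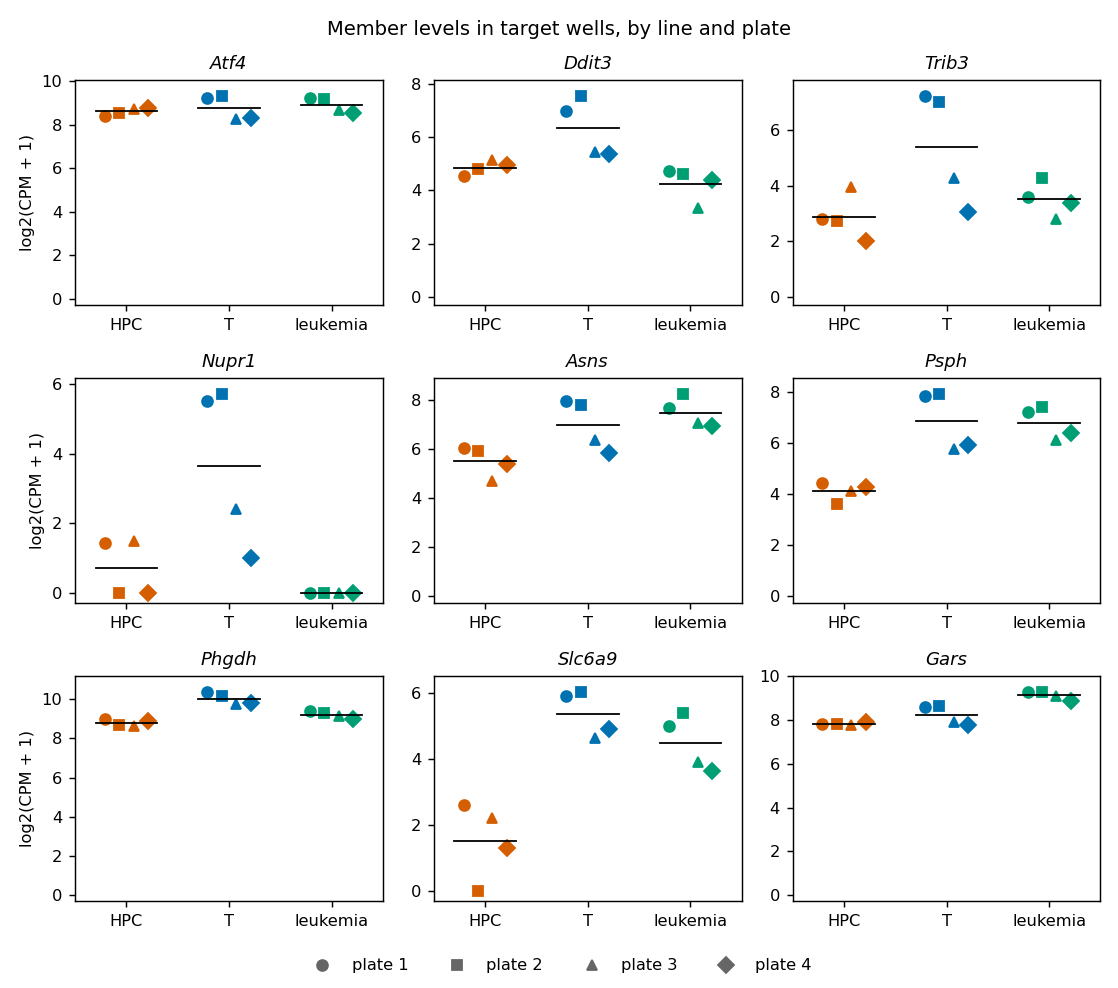
Levels of 9 members in target wells as log2(CPM + 1), with HPC, T and leukemia wells from left to right, 1 marker per plate and a line at the mean of the 4 plates. Psph and Slc6a9 are low on all HPC plates, while Trib3 and Nupr1 are far higher on T plates 1 and 2 than on T plates 3 and 4.

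Among the enzymes of amino acid synthesis, Psph, Asns and Mthfd2 were called lower in HPC wells than in both other lines. Psph, the phosphatase of the last step of serine synthesis, had 20.3, 11.3, 16.4 and 18.1 CPM in HPC wells, 226.4, 243.4, 53.9 and 60.4 CPM in T wells and 149.6, 171.3, 68.8 and 83.6 CPM in leukemia wells. All HPC plates lay below all T and leukemia plates, with log2 differences of -2.77 against T and -2.70 against leukemia. Asns, asparagine synthetase, had 66.04, 59.8, 25.5 and 40.8 CPM in HPC and 204.9, 307.7, 135.5 and 124.2 CPM in leukemia wells, again without overlap (-1.98, -2.37 to -1.58 over plates). Its T level of 250.04, 222.4, 81.95 and 56.7 CPM overlapped the HPC plates only at the low end of T (-1.47 for HPC against T). Phgdh, the first enzyme of serine synthesis, had 496.8, 414.4, 388.7 and 465.01 CPM in HPC and 1313.9, 1145.2, 865.7 and 888.99 CPM in T wells (-1.24, no overlap), and 665.9, 617.2, 564.96 and 506.3 CPM in leukemia wells, where the HPC difference missed 2-fold (-0.41).

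Psat1, the aminotransferase between Phgdh and Psph, had 169.3, 134.4, 109.1 and 155.5 CPM in HPC and 339.4, 380.02, 216.7 and 246.2 CPM in T wells (-1.03). Mthfd2, a mitochondrial folate enzyme, had 89.7, 94.3, 101.9 and 80.02 CPM in HPC, 311.5, 238.8, 154.2 and 130.9 CPM in T and 278.5, 260.3, 195.2 and 150.2 CPM in leukemia wells. Its HPC difference was -1.10 against T and -1.23 against leukemia, and no HPC plate overlapped either line. Shmt2, which moves a carbon unit from serine to folate, Aldh18a1 and Pycr1 of proline synthesis and the alanine aminotransferase Gpt2 met no call. Of the 9 enzymes, 5 of 9 tested were lower in HPC than in T (background 15.3%) and 3 of 7 tested lower in HPC than in leukemia (background 12.8%), while 0 of 9 were called between T and leukemia (background 14.8% higher and 12.2% lower).

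Among the synthetases, Gars, the glycyl-tRNA synthetase, had 222.7, 227.3, 216.5 and 243.1 CPM in HPC wells and 627.1, 619.8, 548.1 and 471.5 CPM in leukemia wells, with no overlap (-1.31). Sars, which charges serine tRNA, had 140.5, 123.9, 121.9 and 152.5 CPM in HPC, 484.4, 473.1, 197.3 and 203.03 CPM in T and 313.97, 333.4, 258.9 and 262.1 CPM in leukemia wells, so that all HPC plates lay below both lines (-1.20 against T and -1.11 against leukemia). Yars (tyrosine) was lower in HPC than in leukemia by a log2 difference of -1.05, Mars (methionine) and Aars (alanine) were lower in HPC than in T by -1.13 and -1.10. Vars (valine) was lower in T, at 231.6, 214.8, 195.2 and 166.9 CPM, than in leukemia, at 427.6, 425.3, 428.02 and 369.6 CPM (-1.03). Of the 13 synthetases, 3 were called lower in HPC than in T (background 15.3%), 3 lower in HPC than in leukemia (background 12.8%) and 1 lower in T than in leukemia (background 12.2%). In those 3 comparisons 0 synthetases were called higher (backgrounds 13.1%, 13% and 14.8%).

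Among the transporters, Slc6a9, the glycine transporter GlyT1, had 5.08, 0, 3.64 and 1.51 CPM in HPC wells, 58.9, 64.7, 23.7 and 28.9 CPM in T wells and 31.3, 40.6, 14.2 and 11.4 CPM in leukemia wells. It had the most negative HPC difference of the members against both lines, -3.83 against T and -2.95 against leukemia, without overlap. Slc1a4, which carries alanine, serine and cysteine, had 8.47, 5.63, 7.28 and 6.04 CPM in HPC, 17.2, 21.02, 4.31 and 12.9 CPM in T and 36.3, 43.5, 24.3 and 18.01 CPM in leukemia wells. It was lower in HPC than in leukemia by a log2 difference of -1.94 and lower in T than in leukemia by -1.19. Slc7a5, the light chain of the LAT1 exchanger of large neutral amino acids, had 45.7, 40.8, 23.6 and 28.7 CPM in HPC, below 79.9, 89.1, 53.9 and 76.97 CPM in T (-1.11) and 88.7, 80.8, 48.5 and 72.03 CPM in leukemia wells (-1.05). Its heavy chain Slc3a2 and the carriers Slc38a1, Slc38a2, Slc7a1 and Slc1a5 met no call. Of the calls lower in T than in leukemia, only 1 of the 2 was left without plate 3 and without plate 4.

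The same line comparisons were made in the other experiments. The share of all genes called again was not taken, so repeats of calls between experiments have no background here. Of the 9 members lower in HPC than in leukemia target wells, 7 were called lower again in random wells (Asns, Psph, Mthfd2, Gars, Yars, Slc1a4 and Slc6a9), 4 in FACS wells (Asns, Psph, Gars and Slc6a9) and 7 in time-lapse wells (Asns, Psph, Mthfd2, Gars, Sars, Yars and Slc7a5), and all 9 kept the sign in each. Psph is an example: it had 20.8, 29.95, 26.9 and 36.2 CPM in HPC random wells against 162.3, 168.7, 154.9 and 160.5 CPM in leukemia random wells, and 22.6 and 19.04 CPM on FACS plates 1 and 2 against 237.01 and 114.99 CPM. The log2 difference of Psph was -2.49 in random, -2.93 in FACS and -3.14 in time-lapse wells. For Asns it was -1.20, -1.34 and -2.36. These FACS values are by profile. With FACS wells by label, the HPC over leukemia difference was 0.044 for Psph, -0.13 for Asns, -0.02 for Gars and -0.15 for Slc6a9, and none of the 4 was called. Each label held wells of all 3 profiles, so these values do not check those by profile.

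Over all members, HPC against leukemia gave 5 higher (background 15.9%) and 7 lower (background 11.9%) of 38 tested in random wells. It gave 6 higher (background 15.5%) and 4 lower (background 13.2%) of 39 in FACS wells, and 2 higher (background 13.7%) and 14 lower (background 13.2%) of 37 in time-lapse wells. The members called higher in HPC were stress factors in all but 1 case, Gpt2 in random wells. Ddit3, for example, had 40.5, 24.2, 33.7 and 74.1 CPM in HPC random wells against 10.3, 14.5, 25.2 and 6.80 CPM in leukemia random wells (1.56). Only 4 members were left as lower in random wells without plate 1, only 2 as higher without random plate 4, and 3 as higher in FACS wells without FACS plate 1. With FACS wells by label, 0 members were higher (background 0.915%) and 1 was lower (Nupr1, background 1.02%).

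HPC against T gave 1 higher (Ppp1r15a, background 16.8%) and 6 lower (background 14.8%) of 39 in random wells, 3 higher (Chac1, Aldh18a1 and Nupr1, background 14.8%) and 5 lower (background 17.2%) of 40 in FACS wells, and 0 higher (background 13.4%) and 19 lower (background 16.6%) of 39 in time-lapse wells. Of the 16 members lower in HPC than T target wells, Psph and Mars were called lower in all 3 other experiments, and Stc2, Phgdh and Slc6a9 in random and FACS wells. Nupr1 and Ddit3 had the opposite sign in random wells, Nupr1, Atf5, Trib3 and Cebpb in FACS wells, and Stc2 in time-lapse wells. The 1 higher call in random wells was lost without plate 4, and 5 were higher in FACS wells without FACS plate 1. By label, FACS wells gave 0 members higher (background 0.783%) and 0 lower (background 0.964%).

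T against leukemia gave 6 higher (background 14.9%) and 1 lower (Gars, background 12.8%) of 38 in random wells. It gave 5 higher (background 16.7%) and 7 lower (background 12.1%) of 39 in FACS wells, and 4 higher (background 14.9%) and 0 lower (background 11.3%) of 39 in time-lapse wells. Atf5 and Cebpb were called higher in T in all 4 experiments, with Atf5 at 2.17, 2.01, 1.38 and 1.83 and Cebpb at 1.64, 1.60, 1.25 and 1.91 in target, random, FACS and time-lapse wells. Stc2, called higher in T target, random and FACS wells, and Slc1a4, lower in T target wells, had the opposite sign in time-lapse wells. In random wells 3 members were lower without plate 2, and 2 without plate 3 or plate 4. In FACS wells 3 were higher without FACS plate 1. By label, FACS wells gave 0 members higher (background 0.62%) and 1 lower (Trib3, background 0.644%), and the differences of Atf5 and Cebpb were 0.14 and 0.46.

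The plates of an experiment differed in the pathway as a whole. In T target wells the median member, among 40 with at least 10 CPM, lay 0.51, 0.48, -0.43 and -0.52 on the log2 scale from the mean of the 4 plates on plates 1 to 4. On those plates 35, 39, 1 and 3 of the 40 members lay above the mean, while the median of 7533 genes stayed between -0.04 and 0.04. In leukemia target wells the median member lay at 0.25, 0.28, -0.24 and -0.26, with 34, 32, 3 and 5 of 35 members above the mean. In HPC target wells it lay at 0.06, 0.02, -0.06 and 0.08, with 21, 18, 13 and 22 of 32 members above the mean. The share of all genes above the mean is not given beside these counts or those of random plates.

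**Figure D2:**
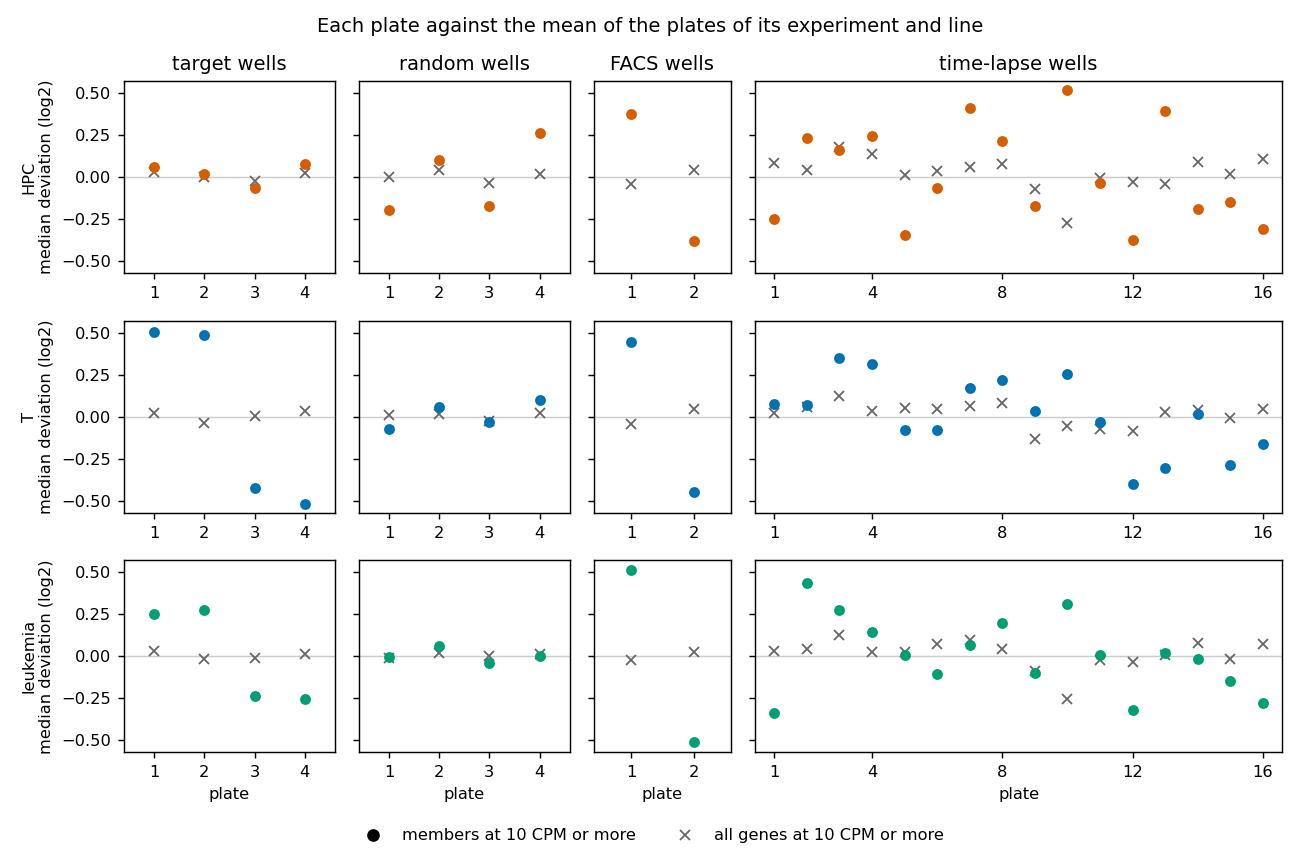
Median deviation of the members (filled circles) and of all genes (crosses) on each plate from the mean of the plates, on the log2 scale, with HPC, T and leukemia wells from top to bottom and target, random, FACS and time-lapse plates from left to right. In target wells the T plates span 0.51 to -0.52 and the HPC plates 0.08 to -0.06, and FACS plate 1 lies above FACS plate 2 in all 3 lines.

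The line differences also varied by plate. The median member difference of HPC against T was -1.11, -1.21, -0.53 and -0.33 on target plates 1 to 4, with 0, 1, 9 and 13 of 40 members above 0. Of all genes tested, 46.2%, 46.5%, 42.5% and 43.9% lay above 0 on those plates. For HPC against T the median of all genes was -0.09, -0.08, -0.18 and -0.12. Against leukemia it was -0.75, -0.80, -0.24 and -0.17. The median total per well on plates 1 to 4 was 35614, 35990, 36730 and 47422 counts in T wells and 39698, 28930, 31374 and 33749 counts in leukemia wells, and the part of depth or of a culture behind each plate in these differences was not tested. Random plates were closer together, with median members between -0.07 and 0.10 in T and between -0.04 and 0.06 in leukemia wells. The exception was HPC, where random plate 4 lay at 0.26 with 32 of 36 members above the mean and plates 1 to 3 at -0.20, 0.10 and -0.17.

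On that random plate 4, HPC wells had 88.1 CPM of Trib3, against 14.8, 18.4 and 7.50 CPM on plates 1 to 3. Slc3a2 stood at 109.7, 145.9, 126.2 and 350.04 CPM and Ppp1r15a at 47.4, 17.4, 34.995 and 100.5 CPM on plates 1 to 4 of HPC random wells. Over the 16 time-lapse plates the median member ran from -0.38 to 0.52 in HPC, from -0.40 to 0.35 in T-profile and from -0.34 to 0.44 in leukemia wells. On time-lapse plate 12 it was low in each line, at -0.38, -0.40 and -0.32, and on plate 10 high in each, at 0.52, 0.26 and 0.31, where the median of all genes lay at -0.28, -0.06 and -0.26.

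The FACS plates differed in all 3 lines. FACS plate 1 over plate 2 has 1 plate a side and no repeat, and this comparison was chosen after the values were seen. In HPC wells 13 of 39 members tested were at least 2-fold higher on plate 1 (background 9.24%) and 0 lower (background 8.94%). In T wells 20 of 40 were higher (background 8.35%) and 0 lower (background 5.68%), and in leukemia wells 20 of 38 were higher (background 3.18%) and 0 lower (background 4.17%). The median member difference was 0.76 in HPC, 0.96 in T and 1.03 in leukemia wells, against -0.07, -0.06 and -0.05 for all genes tested. Members above 0 numbered 35 of 39, 39 of 40 and 38 of 38. With FACS wells grouped by label, 16, 18 and 20 members were higher (backgrounds 6.55%, 6.15% and 5.43%) and 0 lower (backgrounds 6.81%, 4.56% and 3.43%). The calls lost by label were Cebpg (0.68), Ppp1r15a (-0.187) and Pycr1 (0.28) in HPC wells, Cebpb (0.36), Eprs, Nars and Yars in T wells, and Mthfd2, Cars, Tars and Slc7a5 in leukemia wells.

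Of the stress factors tested, 7 of 9 were higher on plate 1 in HPC (background 9.24%), 7 of 9 in T (background 8.35%) and 5 of 8 in leukemia wells (background 3.18%), and by label 2 of the 7 in HPC wells, Cebpg and Ppp1r15a, were not. Trib3 had 158.4 CPM on plate 1 against 20.2 CPM on plate 2 in HPC wells, 168.97 against 2.69 CPM in T wells and 89.6 against 3.65 CPM in leukemia wells. Ddit3 had 151.6 against 4.76 CPM in HPC, 99.3 against 19.7 CPM in T and 52.8 against 7.67 CPM in leukemia wells. Both were higher on plate 1 in all 3 lines, with log2 differences of Ddit3 between 2.28 and 4.73. Atf4 mRNA had 821.5 against 443.2 CPM in HPC, 539.8 against 201.97 CPM in T and 708.6 against 292.95 CPM in leukemia wells, which passed 2-fold in T and leukemia and came to 0.89 in HPC. Nupr1 had 45.3 against 2.97 CPM in HPC wells and 32.2 CPM against 0 counts in T wells, which is at least 12-fold higher with 3 counts as the floor. In leukemia wells it had 0 counts on both plates.

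Of the enzymes, Asns had 205.9 against 43.1 CPM in HPC, 216.7 against 57.8 CPM in T and 409.9 against 142.4 CPM in leukemia wells. Gpt2 had 40.7 against 2.38 CPM in HPC, 37.4 against 5.37 CPM in T and 25.8 against 2.19 CPM in leukemia wells. The plate 2 values of Gpt2 rest on 2 counts in HPC and 2 counts in leukemia wells. The counting interval of its ratio was 4.10 to 152.1 in HPC and 2.88 to 103.6 in leukemia wells. Pycr1, of proline synthesis, was also called higher on plate 1 in all 3 lines, but by label not in HPC wells. Phgdh was within 2-fold on both plates, at 507.5 against 529.2 CPM in HPC and 1205.2 against 1061.5 CPM in T wells. Among the synthetases, 1, 6 and 6 of 13 were higher on plate 1 in HPC, T and leukemia wells (backgrounds 9.24%, 8.35% and 3.18%). The HPC count was near the background, and Sars was called in all 3 lines. Among the transporters, 2, 1 and 3 of 8 were higher (same backgrounds), with the T count near the background. Slc6a9 was higher in all 3 lines, at 24.9 against 2.38 CPM in HPC wells, from 2 counts on plate 2. Its ratio in HPC wells was 10.5, with a counting interval of 2.28 to 97.1.

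**Figure D3:**
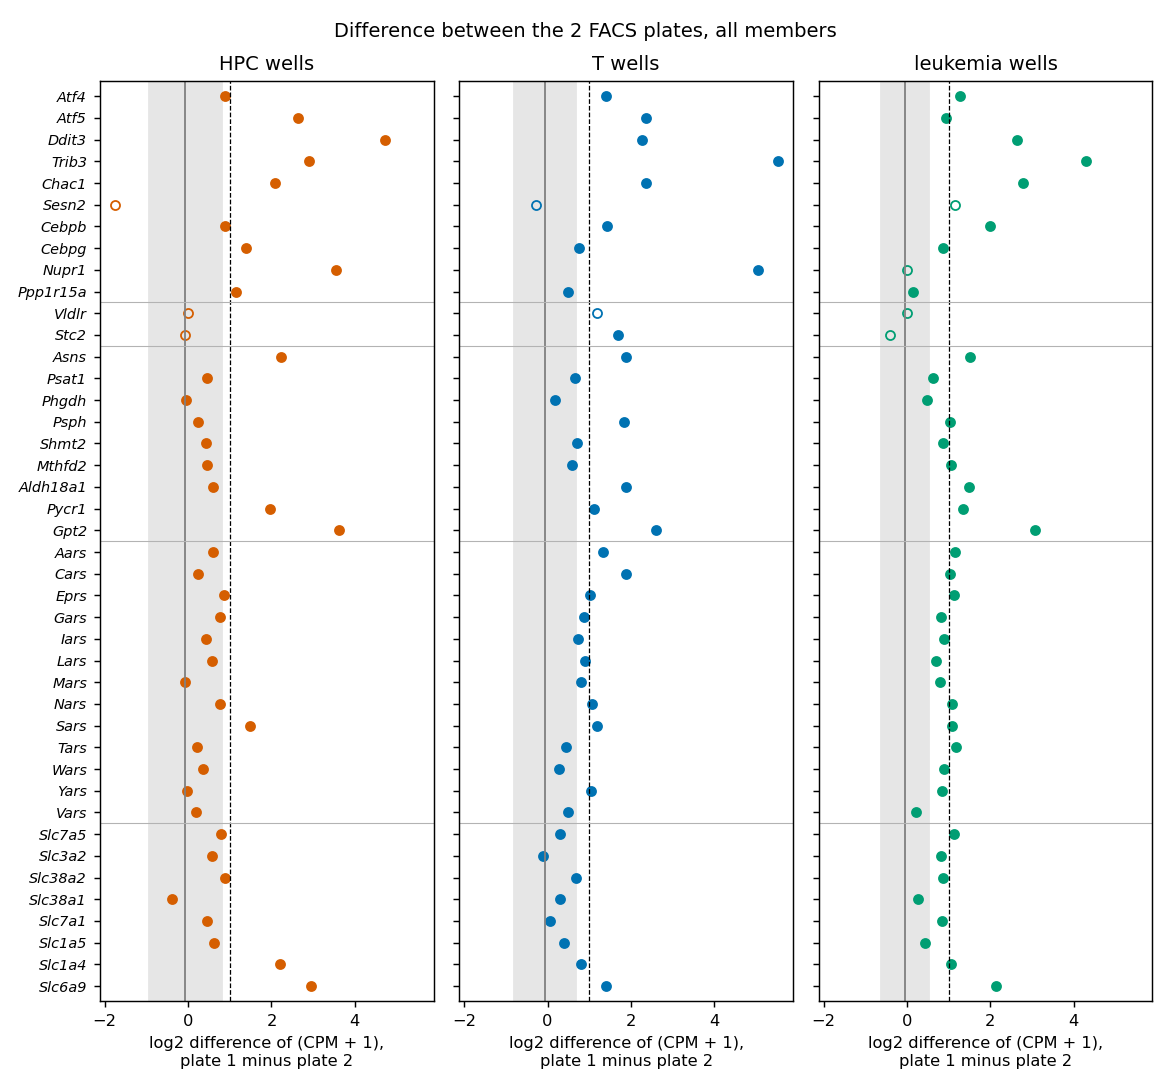
Log2 difference of (CPM + 1) between FACS plate 1 and FACS plate 2 for all 42 members, grouped by role, in HPC, T and leukemia wells. Filled circles had at least 10 CPM on either plate and open circles did not, the grey line and band mark the median and 1 SD of all genes tested, and the dashed line marks 2-fold. Trib3 and Ddit3 lie far to the right in all 3 lines, and most filled circles lie right of the grey line.

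Depth and RNA quality values moved with the FACS plates in part. The median total per well was 17052 counts on plate 1 against 31641 on plate 2 in HPC wells, 23962 against 35836 in T wells and 25835 against 27863 in leukemia wells. The ribosomal transcript Rn45s took a median of 6.18% against 5.77%, 5.81% against 4.18% and 6.66% against 5.04% of counts. The labels do not say whether the plates came from the same culture or day, and the part of either was not tested.

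The neighbouring gene lists did not all move with the members between the FACS plates. Of other genes known as Atf4 targets, 10 of 17 tested were higher and 0 lower in HPC wells, 8 of 19 higher and 2 lower in T wells and 4 of 15 higher and 0 lower in leukemia wells. The backgrounds of these counts and of the lists that follow are those of the members. Cth, which makes cysteine from cystathionine, had 27.2 against 1.19 CPM in HPC and 23.2 against 1.79 CPM in T wells. Bbc3 (PUMA), a pro-apoptotic protein, had 67.9 against 17.8 CPM in HPC and 34.4 against 5.48 CPM in leukemia wells. Of 10 cytosolic synthetases and synthetase partners that are not members, 0 were higher in any line and 1 was lower, Eef1e1 in T wells. Of the mitochondrial synthetases, 0 of 14, 2 of 14 and 0 of 15 were higher and 4, 1 and 1 lower in HPC, T and leukemia wells. Of the kinases and factors around eIF2, 0 of 16, 0 of 16 and 0 of 15 were higher and 2, 0 and 0 lower. Of the endoplasmic reticulum chaperones, 0 of 16, 2 of 17 and 0 of 16 were higher and 4, 0 and 0 lower, with Sdf2l1 at 33.9 against 117.8 CPM in HPC wells.

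The study also set ALPS against FACS, and no plate holds both, so method and plate cannot be told apart. Target over FACS wells gave 0 of 39 members higher (background 2.18%) and 7 lower (background 3.55%) in HPC wells. It gave 1 of 40 higher (background 1.27%) and 0 lower (background 0.793%) in T wells, and 0 of 37 higher (background 0.822%) and 0 lower (background 0.835%) in leukemia wells. Random over FACS wells, which shares the FACS wells, gave 0 of 39 higher (background 2.36%) and 0 lower (background 0.792%) in HPC wells. It gave 0 of 40 higher (background 0.886%) and 1 lower (background 0.785%) in T wells, and 0 of 38 higher (background 0.61%) and 0 lower (background 0.467%) in leukemia wells. The counts rest on which FACS plate is used. With 1 FACS plate left out, fewer pairs of plates had to agree, and no share over all genes is given beside the counts. Without FACS plate 2, 16, 2 and 11 members were lower in target HPC, T and leukemia wells, and without FACS plate 1, 1, 9 and 2 were higher and 3 were lower in HPC wells. Random over FACS gave 11, 5 and 6 lower without FACS plate 2, and 5, 9 and 4 higher and 0 lower without FACS plate 1. Leaving out target plate 2, or random plate 1, 2 or 4, gave 1 call in some comparisons that otherwise had 0.

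The 7 members lower in target than in FACS HPC wells were Nupr1, Trib3, Chac1, Cebpg, Aldh18a1, Slc7a5 and Cebpb. Without the 3 target wells labelled HPC that matched another profile, 6 members were lower. Trib3 had 5.93, 5.63, 14.6 and 3.02 CPM on the target plates against 158.4 and 20.2 CPM on the FACS plates (-2.99). Chac1 had 6.77, 9.85, 3.64 and 10.6 CPM against 58.8 and 13.1 CPM (-1.82), and -0.17 with FACS wells by label. Cebpg had 27.1, 29.6, 16.4 and 15.1 CPM against 122.2 and 46.4 CPM (-1.79), with no overlap of plates. Aldh18a1 had 50.8, 45.04, 20.01 and 18.1 CPM against 99.6 and 65.4 CPM (-1.39), Slc7a5 differed by -1.36, Cebpb by -1.27 and Nupr1 by -3.03 from 2 counts in target wells. In T wells Ppp1r15a was higher in target, at 30.1, 51.3, 29.1 and 19.2 CPM, than in FACS wells, at 14.2 and 9.85 CPM (1.30). In the random over FACS comparison the same HPC differences were -1.41 for Trib3, -1.55 for Chac1 and -0.57 for Cebpg, and Pycr1 was lower in T wells by a log2 difference of -1.12. With FACS wells by label, target over FACS gave 7, 0 and 2 lower in HPC, T and leukemia wells (backgrounds 12.4%, 9.47% and 11.1%) and 0, 1 and 0 higher (backgrounds 6.64%, 3.85% and 4.3%). Of the 7 in HPC wells, only Slc7a5 was also among those by profile, and the others were Stc2, Asns, Psph, Mthfd2, Slc1a4 and Slc6a9. By profile the FACS wells labelled HPC were 13 HPC, 16 T and 16 leukemia wells. Line and method therefore cannot be told apart in comparisons with FACS wells by label. Random over FACS by label gave 2, 1 and 2 lower (backgrounds 9.6%, 8.99% and 10.3%) and 1, 0 and 0 higher (backgrounds 9.6%, 4.32% and 4.78%).

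Other listed genes showed few calls against FACS. Atf3, a stress factor outside the members, was higher in HPC wells in target, at 131.5 CPM, and in random, at 105.7 CPM, than in FACS, at 7.80 CPM. The other lists had at most 1 call in each direction against FACS in each line: Ddit4 (lower in random leukemia wells), and among mitochondrial synthetases Fars2, Mars2 and Hars2.

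The time-lapse experiment adds imaging before picking, and again no plate holds both time-lapse and random wells, so imaging and plate cannot be told apart. In HPC wells 2 of 37 members were higher in time-lapse than in random wells (background 4.4%) and 9 lower (background 8.42%). In T-profile wells 5 of 40 were higher (background 9.39%) and 3 lower (background 10.2%), a share near a large background. In leukemia wells 1 of 38 was higher (background 0.906%) and 1 lower (background 1.05%). Without random plate 3, 1 member was higher in HPC wells and 2 in leukemia wells. Leaving out wells with a profile margin under 0.02 changed none of these 6 counts.

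Slc38a2, the system A carrier SNAT2 of small neutral amino acids, was the member called higher in all 3 lines. In HPC wells its lowest, median and highest time-lapse plates had 244.4, 516.1 and 993.5 CPM, against 182.3, 166.2, 176.2 and 204.7 CPM on the random plates (1.46). In T-profile wells they had 300.7, 419.2 and 668.99 CPM, against 136.2, 168.2, 133.9 and 161.2 CPM (1.501). In leukemia wells they had 248.6, 399.3 and 1088.4 CPM, against 134.4, 154.1, 126.7 and 135.3 CPM (1.51). No time-lapse plate overlapped a random plate in any line. Its relative Slc38a1 was not called in any line.

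In HPC wells Eprs, the bifunctional synthetase for glutamate and proline, was the other member higher in time-lapse wells, at 325.5, 553.3 and 829.8 CPM against 270.7, 258.96, 231.6 and 336.04 CPM in random wells (1.04), with an overlap at the lowest time-lapse plates. The 9 lower members were Aldh18a1, Wars, Slc7a5, Slc7a1, Yars, Lars, Mars, Psat1 and Shmt2. Aldh18a1, the first step of proline synthesis, had 7.02, 16.9 and 38.6 CPM against 52.4, 71.5, 31.2 and 61.8 CPM (-1.56), with random plate 3 inside the time-lapse range. Slc7a1, the arginine and lysine carrier CAT1, had 18.6, 40.2 and 88.9 CPM against 91.9, 103.4, 93.1 and 121.9 CPM (-1.28), without overlap. The differences of the other 7 ran from -1.33 (Wars) to -1.01 (Shmt2). Atf4 stood at 194.2, 394.8 and 763.4 CPM in HPC time-lapse wells against 393.3, 467.2, 397.4 and 535.4 CPM in random wells, which overlap.

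In T-profile wells Asns had 337.6, 482.95 and 736.6 CPM in time-lapse wells against 107.1, 129.9, 99.5 and 118.5 CPM in random wells (2.10), with no overlap. Sesn2, Slc1a4 and Pycr1 were also higher, by 1.82, 1.40 and 1.17. Stc2 had 1 count over all time-lapse T-profile wells, against 23.8, 24.8, 27.8 and 25.99 CPM on the plates of random T wells. The random over time-lapse ratio of Stc2 was 500.9, with a counting interval of 88.5 to 19916. Phgdh and Slc7a5 were lower, with log2 differences of -1.01 and -1.09. In leukemia wells Chac1 was lower, at 4.76 CPM in time-lapse against 13.3 CPM in random wells (-1.34). That call was lost with a pseudocount of 5 CPM (-0.87), with a 50 CPM filter and with the mean CPM of single wells (-1.07).

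**Figure D4:**
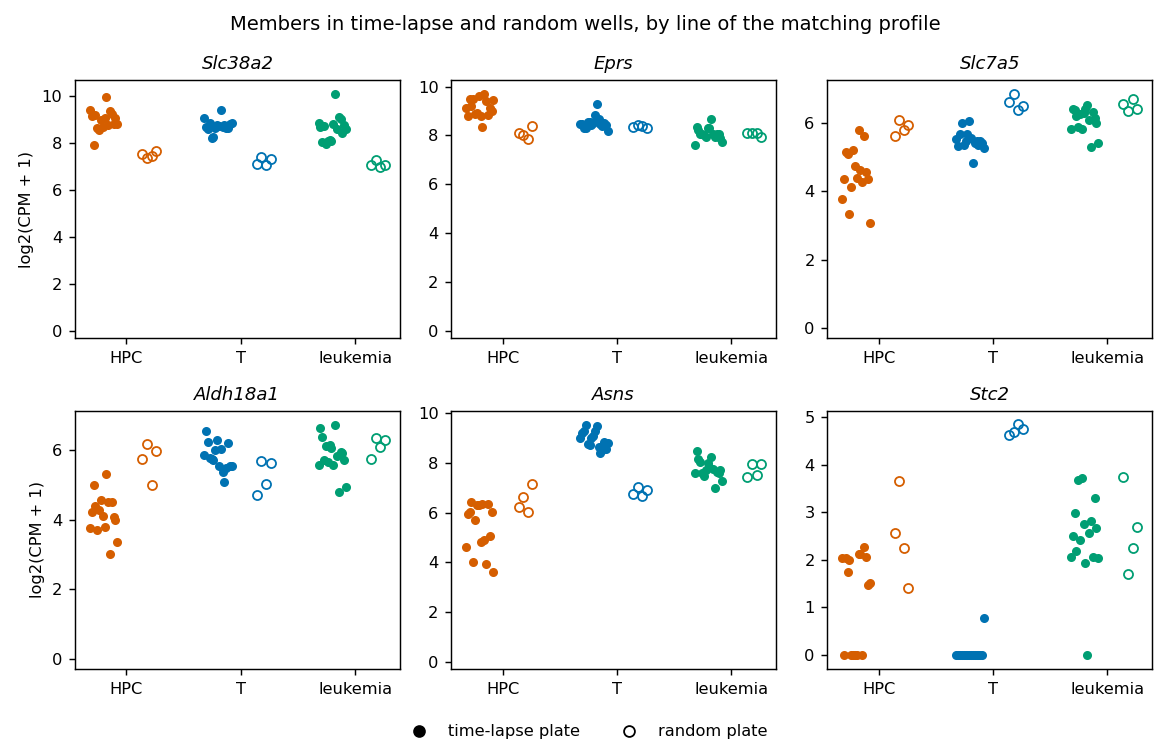
Levels of 6 members as log2(CPM + 1) on time-lapse plates (filled, left of each pair) and random plates (open, right), in HPC, T and leukemia wells by profile. Slc38a2 is higher on all time-lapse plates in the 3 lines, Aldh18a1 and Slc7a5 are lower in HPC wells, and Asns and Stc2 differ in T-profile wells.

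Of the other lists, with the same backgrounds as the members, the cytosolic synthetases that are not members had 4 of 10 lower and 0 higher in HPC time-lapse wells, 1 lower in T-profile wells and 0 in leukemia wells. The other Atf4 targets had 2 higher and 2 lower of 16 in HPC, 4 higher and 1 lower of 21 in T-profile and 3 higher and 0 lower of 13 in leukemia wells. Sqstm1 (p62), an autophagy receptor, had 1388.9 CPM in time-lapse against 279.1 CPM in random HPC wells and 232.2 against 89.9 CPM in leukemia wells. Cth had 52.2 CPM in time-lapse T-profile wells against 3.69 CPM in random T wells. Among the eIF2 genes, Impact, an inhibitor of the kinase Gcn2, was higher in HPC (63.8 against 24.03 CPM) and T-profile wells (94.1 against 22.6 CPM), and Eif2ak3 (PERK) was higher in HPC wells. The mitochondrial synthetases had 2 of 13 lower in HPC and 2 of 13 lower in T-profile wells, and the chaperones 1 higher and 1 lower of 17 in HPC and 1 lower of 16 in T-profile wells.

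Between target lines, calls in the same 5 lists were counted against the backgrounds of the members. Other Atf4 targets had 3 higher and 4 lower of 21 in HPC against T (backgrounds 13.1% and 15.3%), 5 higher and 1 lower of 17 in HPC against leukemia (backgrounds 13% and 12.8%) and 8 higher and 2 lower of 19 in T against leukemia (backgrounds 14.8% and 12.2%). Atf3 had 131.5 CPM in HPC and 0 counts in leukemia wells, and Slc7a3, a cationic amino acid carrier, had 86.99 CPM in T against 0.821 CPM in leukemia wells and 0 counts in HPC wells. The cystine carrier Slc7a11 had 4.78 CPM in HPC against 110.1 CPM in leukemia wells. The cytosolic synthetases that are not members had 0 calls of 10 in all 3 comparisons. The eIF2 genes had 1 higher and 3 lower, 0 and 3, and 2 and 2 of 16, the mitochondrial synthetases 0 and 2 of 15, 0 and 0 of 13, and 3 and 1 of 15, and the chaperones 0 and 2, 0 and 0, and 2 and 0 of 16, in the same order.

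The members also varied together from well to well within a line. Each member's level per well, centred within its plate, was correlated with the mean z-score of the other members. In time-lapse wells the median Spearman rho of the members was 0.365 in HPC, 0.339 in T-profile and 0.316 in leukemia wells (16 plates with the numbers of wells given above), against a median of 0.079, 0.027 and 0.033 for the other genes measured. In random wells it was 0.482, 0.462 and 0.355 (4 plates), against 0.087, 0.013 and 0.013. In target wells it was 0.429, 0.182 and 0.273 (73 HPC wells, 120 T wells and 4 plates of leukemia wells), against 0.090, 0.024 and 0.033. In time-lapse wells 23 of 37, 37 of 40 and 33 of 37 members used lay above the 95th percentile of the other genes. In random wells 27 of 35, 36 of 39 and 30 of 37 did, and in target wells 16 of 33, 20 of 41 and 27 of 37. The member median of 0.429 in target HPC wells lay just under that percentile, at 0.432. These are descriptions: the points share library, depth and plate preparation.

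Depth moved with the score. The score's rho with the total count of the well was 0.647, 0.302 and 0.403 in HPC, T-profile and leukemia time-lapse wells. With wells thinned to 20000 counts, which left out 14.9%, 0.631% and 3.96% of the wells as shallower, the median member rho was 0.223, 0.214 and 0.280 and that of other genes -0.002, 0.004 and -0.001. After thinning, the score still had rho 0.306, 0.143 and 0.171 with the total of the well before thinning. In target T wells 20 of 41 members passed the 95th percentile at full depth and 12 of 40 after thinning. The median member rho in these wells was 0.182 at full depth and 0.097 after thinning. In random and target HPC wells the score's rho with the total was 0.701 and 0.657. Thinning took the median member rho in those HPC wells from 0.482 to 0.358 and from 0.429 to 0.336. The rho of the thinned score with the total before thinning was 0.340 and 0.370 there.

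The members that followed the rest most closely, by median rho over 9 groups, were Mthfd2 (0.57), Asns (0.52), Shmt2 (0.51) and Psat1 (0.49), followed by Nars, Aars and Slc7a1 (each 0.47). Atf4 had a median of 0.45, and 0.24 to 0.68 over the groups. Ppp1r15a (0.06), Slc38a1 (0.08), Pycr1 (0.10, 5 groups) and Slc38a2 (0.14) followed the others least. Of single pairs, Atf4 and Trib3 had rho 0.344, 0.492 and 0.433 in HPC, T-profile and leukemia time-lapse wells, and Asns and Shmt2 0.425, 0.40 and 0.350. Outside the members and lists, the 10 genes with the highest median rho in time-lapse wells were Eif3c (0.463), Pck2 (0.392), Hspa9, Phf10, Clic4, Hspd1, Eif1, Npm1, Ero1l and Mif (0.311), taken among genes with at least 50 CPM in each line. Pck2, the mitochondrial PEP carboxykinase, had 0.244, 0.392 and 0.392 in HPC, T-profile and leukemia time-lapse wells and 0.398, 0.559 and 0.463 in random wells.

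**Figure D5:**
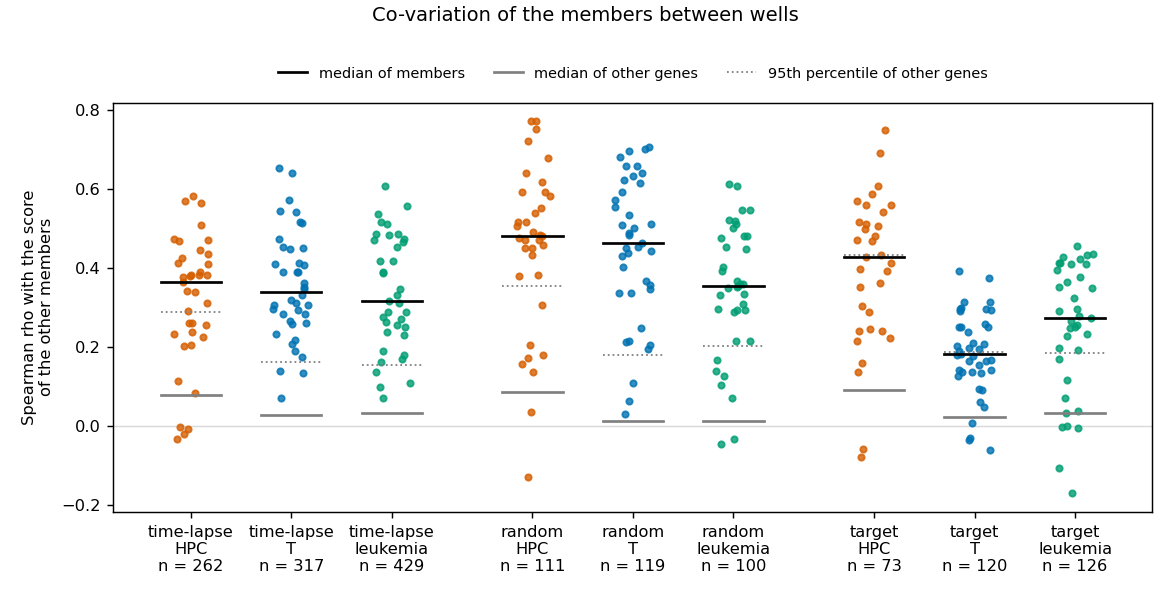
Spearman correlation over wells of each member (points) with the score of the other members, in time-lapse, random and target wells of each line, with the number of wells under each group. Black lines mark the median of members, solid grey lines the median of other genes and dotted lines their 95th percentile. The member medians run from 0.182 in target T wells to 0.482 in random HPC wells, above the other genes' median in all 9 groups.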

How the data were processed

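Expected counts per gene and well were deposited by the authors in 1 table for the 3-line mixture. Of the positive values, 5.31% are not whole. Molecular barcodes were on the reverse transcription primer, per the labels' protocols, and whether they were collapsed is not given in the labels. The tools bcl2fastq and STAR and the build mm10 are named, with no role or version, in the submitters' processing notes, while the counter, annotation and filters were not given in the sources used here. Here, counts of wells were summed per plate and line (plates with at least 5 wells of that line), scaled to CPM and compared as log2(CPM + 1), in Python 3.11.15 (pandas 2.3.3 and numpy 2.4.6 for sums, scipy 1.17.1 for ranks, figures by matplotlib 3.10.9). ALPS over FACS calls had to hold for all pairs of plates, and time-lapse over random calls needed at least 85% of time-lapse plates on the same side of all random plates. Lines of unlabelled wells came from the rank correlation with target profiles over 8693 genes, members left out. Each group is 1 sample, so ranges are over plates and intervals cover counting error only.

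Members and the 5 other gene lists were chosen with earlier results of these data known. All members could be named; those called in target line, target over FACS or time-lapse over random comparisons are described in full, other genes by the largest called difference. The FACS plate comparison, and FACS wells by label outside target over FACS, were added after the values were seen. Steps were tested on simulated data. The table of murine blood cells was not used.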

Additional observations from a re-analysis of the deposited data

Results flagged for a closer look

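Among the groups of 4 plates examined, 8 (3.67%) had a plate set apart from the rest, where chance alone sets apart about 1 in 20. On target plate 2 Atf5 had 19.4 CPM in leukemia wells, against 8.45 to 10.1 CPM on the other plates. Target plate 4 was low in leukemia wells for Aars, at 108.5 against 152.7 to 161.4 CPM, and for Vars, at 369.6 against 425.3 to 428.02 CPM. Wars had 34.6 CPM in HPC wells of target plate 3, against 58.9 to 63.3 CPM. Eprs had 247.5 CPM in leukemia wells of random plate 4, against 273.1 to 275.01 CPM, and Gars had 258.1 CPM in T wells of random plate 1, against 292.05 to 296.2 CPM. In HPC wells of random plate 4, Trib3 had 88.1 CPM against 7.50 to 18.4 CPM, and Slc3a2 had 350.04 CPM against 109.7 to 145.9 CPM.

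In 10 cases a line difference pointed one way on all plates of an experiment and the other way on all plates of another. No share over all genes was taken for this count. The difference was not tested in any of these cases, and FACS values are by profile. All cases with time-lapse wells include the T-profile wells, whose T markers were low. For T over leukemia, Asns differed by -0.87 in random and -1.10 in FACS wells against 1.19 in time-lapse T-profile wells, gaps of -2.06 and -2.29. For HPC over leukemia, Cebpg differed by -0.47 in target and 1.0014 in FACS wells, a gap of -1.47. For HPC over T, Atf5 differed by -1.16 in target and 0.37 in FACS wells, a gap of -1.53, and Nupr1 by -2.93 and 1.23, a gap of -4.17. Iars differed by 0.55 in random and 0.66 in FACS wells against -1.19 in time-lapse wells, gaps of 1.74 and 1.85. Chac1 differed by 1.79 in FACS and -2.29 in time-lapse wells, a gap of 4.09, Aldh18a1 by 1.24 and -1.65, a gap of 2.89, and Slc1a5 by 0.19 and -1.26, a gap of 1.45. With FACS wells by label, Asns in T over leukemia was 0.00995, Cebpg in HPC over leukemia -0.39, and Nupr1, Chac1 and Aldh18a1 in HPC over T were -0.51, -0.37 and -0.021.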

How the results depend on the processing

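Each group is 1 sample, line identity of unlabelled wells rests on the profile, and low members turn on few counts. No paired analysis was possible because the results come from no test; line differences were taken within plates. Of the recomputed counts of calls, 83 moved by over 1.5 times, and of single members' differences 1841 stayed, 33 moved and 19 turned, all 19 with FACS wells by label. Ppp1r15a in HPC wells between FACS plates was then -0.187. In FACS T over leukemia, Ddit3 was -0.19, Asns 0.00995, Iars 0.089, Lars -0.043 and Slc1a4 0.16. In FACS HPC over leukemia, Atf5 was -0.013, Trib3 -0.77, Chac1 -0.79, Cebpg -0.39, Nupr1 -1.20 and Psph 0.044. In FACS HPC over T, Chac1 was -0.37, Nupr1 -0.51, Stc2 0.021, Psph 0.14, Aldh18a1 -0.021, Mars 0.054 and Slc6a9 0.21. With FACS wells by label, each line comparison had 0.62% to 1.02% of all genes called in each direction, against 12.1% to 17.2% by profile. Of the FACS wells labelled leukemia, 19 matched the HPC profile, 24 the T profile and 23 the leukemia profile. The cause was not tested. Each label held wells of all 3 profiles, and the share by profile counts genes that helped assign the wells. Neither share decides between label and profile. Values below are members higher or lower in the first group, with no share over all genes beside them. With a pseudocount of 5 CPM, target T over leukemia had 1 lower, target HPC over leukemia 0 higher, random HPC over leukemia 3 higher, FACS T over leukemia 3 higher, FACS HPC over T 3 lower, time-lapse over random leukemia 0 lower and random over FACS T 0 lower. With a 50 CPM filter, which tests fewer genes, target T over leukemia had 3 higher and 1 lower, target HPC over leukemia 0 higher, random T over leukemia 2 higher, random HPC over leukemia 0 higher and HPC over T 0 higher. FACS T over leukemia then had 3 higher, HPC over leukemia 3 higher and HPC over T 1 higher and 3 lower, and time-lapse HPC over leukemia 1 higher. Time-lapse over random had 0 lower in leukemia and 2 higher in T, target over FACS 0 higher in T and 4 lower in HPC, random over FACS 0 lower in T, and FACS plate 1 over plate 2 had 7 higher in HPC. With the mean CPM of single wells, target HPC over leukemia had 0 higher, random T over leukemia 2 lower, random HPC over leukemia 3 higher and time-lapse over random leukemia 0 lower. With median-of-ratios scaling, random T over leukemia had 2 lower, random HPC over leukemia 4 lower, FACS HPC over T 5 higher and 3 lower, and time-lapse over random leukemia 2 higher. That scaling moved the median of all genes by 0.103 to 0.1402 in HPC over T, by 0.103 in target HPC over leukemia, by 0.105 in target over FACS T, and between FACS plates by 0.110 in T and 0.145 in HPC. With Rn45s left out, random T over leukemia had 2 lower and time-lapse over random leukemia 2 higher. With no filter, target over FACS had 1 higher in leukemia and 2 in T, and FACS plate 1 over plate 2 had 1 lower in HPC. With FACS wells by label, which for line differences and random over FACS was chosen after the data were seen, target over FACS leukemia had 2 lower, FACS T over leukemia 0 higher and 1 lower, HPC over leukemia 0 higher and 1 lower, HPC over T 0 higher and 0 lower, random over FACS leukemia 2 lower and random over FACS HPC 1 higher and 2 lower. Leaving out 1 plate at a time gave these ranges of higher and lower members. Target T over leukemia had 4 to 7 and 1 to 3, HPC over leukemia 0 to 1 and 9 to 9, and HPC over T 0 and 13 to 19. Random T over leukemia had 6 to 7 and 1 to 3, HPC over leukemia 2 to 5 and 4 to 7, and HPC over T 0 to 1 and 5 to 8. FACS T over leukemia had 3 to 4 and 5 to 8, HPC over leukemia 3 to 5 and 5 to 5, and HPC over T 2 to 5 and 4 to 4. Target over FACS had 0 to 1 and 3 to 16 in HPC, 1 to 9 and 0 to 2 in T, and 0 to 2 and 0 to 11 in leukemia. Random over FACS had 0 to 5 and 0 to 11 in HPC, 0 to 9 and 0 to 5 in T, and 0 to 4 and 0 to 6 in leukemia. Time-lapse over random had 1 to 2 and 7 to 13 in HPC, 5 and 2 to 3 in T, and 1 to 2 and 1 in leukemia.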
